A study of Drosophila melanogaster with 2 samples.

Results

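The 278 regions described here are intergenic binding entries of a GFP-tagged homeobrain protein that lay away from promoters in whole Drosophila melanogaster embryos. They were selected on the score in the deposited ranked list that compares the 2 replicates, which holds 107925 entries, 106659 of them on the chromosome arms. Entries with a score of 540 or more numbered 5814 on the arms, and a member was one of these whose summit lay over 500 bp from every annotated transcript start and outside every annotated gene, transposable elements not counted as genes. The score falls as the irreproducible discovery rate (IDR) rises, a measure of how well a peak keeps its rank between paired lists, and 540 stands for an IDR of 0.05. Both libraries belong to 1 group: chromatin of whole embryos 0 to 18 h old from transgenic flies that make an hbn-eGFP fusion, sheared by sonication to 200 to 800 bp and precipitated with an antibody to GFP, while the antibody field names hbn. There is no second genotype or stage, and a control experiment that the labels point to was not used here. Whole embryos mix all cell types, so a strong signal in few cells and a weak one in many cannot be told apart. The other groups of regions set beside the members are the 19519 intergenic entries placed by the same rule with a score under 540 (called weaker here), and the 651 intronic and 4390 promoter entries with a score of 540 or more. A further 495 entries with such a score were exonic and away from promoters, and their sequence was not compared with that of members.

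Homeobrain is a paired-like homeodomain transcription factor expressed in the embryonic brain, and homeodomains of this class are known for binding TAAT-type sequences. DNA between genes can hold enhancers, which are bound by transcription factors and act on genes at a distance, and also insulators and the ends of long regulatory domains. Other sequences are common in accessible fly chromatin: DREF, a zinc finger protein of housekeeping promoters and domain borders, binds TATCGATA, and the GAGA factor, a BTB zinc finger protein that keeps chromatin open, binds GA repeats.

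The DNA at the summits of 9 members is shown first, because the strongest of them share letters that the weaker regions mostly lack. Each run is 151 bases of the plus strand centred on the summit, from RefSeq's copy of the Release 6 assembly, which dm6 also is, and each is named by the gene with the nearest protein-coding transcript start. The first 6 are the 6 members of highest signal, CG11629 and klu are the strongest and the fourth strongest of the members with GAGAGAGA (those between them are not shown), and Rh5 is the strongest member of the largest group of members. Capitals mark TATCGA (the core of the DREF site), GAGAGAG, GTGACACG and CATCNCTA, each on either strand. The last pair of motifs was picked after these sequences had been read.
CG5273 chrX:758889-759039: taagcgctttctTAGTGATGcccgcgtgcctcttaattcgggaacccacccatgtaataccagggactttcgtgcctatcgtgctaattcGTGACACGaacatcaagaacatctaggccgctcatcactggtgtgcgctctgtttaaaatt
inc chrX:1517632-1517782: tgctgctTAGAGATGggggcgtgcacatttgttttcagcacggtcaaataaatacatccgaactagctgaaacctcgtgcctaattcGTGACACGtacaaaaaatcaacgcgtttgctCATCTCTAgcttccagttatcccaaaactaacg
CG15468 chrX:4956072-4956222: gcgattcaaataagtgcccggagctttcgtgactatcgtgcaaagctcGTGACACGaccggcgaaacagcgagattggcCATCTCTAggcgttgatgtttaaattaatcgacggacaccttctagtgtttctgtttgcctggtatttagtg
Rcd2 chr3L:20540869-20541019: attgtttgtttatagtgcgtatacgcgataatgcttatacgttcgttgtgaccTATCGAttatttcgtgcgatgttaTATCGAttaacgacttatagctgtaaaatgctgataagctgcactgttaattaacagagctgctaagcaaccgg
SP1029 chr3R:29251499-29251649: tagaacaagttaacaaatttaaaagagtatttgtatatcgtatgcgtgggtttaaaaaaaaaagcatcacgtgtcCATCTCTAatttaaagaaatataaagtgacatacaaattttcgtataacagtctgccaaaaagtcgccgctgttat
Sfp79B chr3L:22078202-22078352: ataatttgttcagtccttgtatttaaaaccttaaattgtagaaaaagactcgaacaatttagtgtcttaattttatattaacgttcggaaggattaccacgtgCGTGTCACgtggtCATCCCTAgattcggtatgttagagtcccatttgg
CG11629 chr2L:21899335-21899485: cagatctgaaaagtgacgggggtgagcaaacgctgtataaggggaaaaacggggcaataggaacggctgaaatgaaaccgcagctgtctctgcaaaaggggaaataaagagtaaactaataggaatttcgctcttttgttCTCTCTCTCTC
klu chr3L:11010435-11010585: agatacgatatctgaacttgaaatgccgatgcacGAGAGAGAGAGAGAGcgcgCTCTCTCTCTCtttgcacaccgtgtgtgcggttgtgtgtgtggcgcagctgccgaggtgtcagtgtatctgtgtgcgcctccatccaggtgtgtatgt
Rh5 chr2L:12007413-12007563: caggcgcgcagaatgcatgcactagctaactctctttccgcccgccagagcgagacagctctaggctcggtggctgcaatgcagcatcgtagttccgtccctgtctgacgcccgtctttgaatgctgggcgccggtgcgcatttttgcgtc

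The 3 strongest members all lay on X and shared a core. The runs at CG5273 and inc had 15 bases in common on the same strand, ctaattcgtgacacg, which holds a TAAT and goes on into GTGACACG. CG15468 shared 11 bases with CG5273 and 10 with inc, and both of these runs held GTGACACG but not the TAAT. GTGACACG began 15, 12 and −27 bp from the summit at CG5273, inc and CG15468, and the fourth member with both motifs, Sfp79B on 3L, had it at 28 bp. In each of these 4 a CATCNCTA lay within 68 bp of the summit, and SP1029 had a CATCNCTA that began on the summit itself. None of these 5 held TATCGA within 100 bp of the summit, and the member between them in rank, Rcd2 on 3L, held it at 2 places, 22 bp before and 2 bp after the summit.

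Within 100 bp of the summit, GTGACACG was present in 9 of 278 members (3.24%, 95% Wilson interval 1.71 to 6.04%), 53 of 19519 weaker intergenic entries (0.272%), 9 of 651 intronic entries (1.38%) and 34 of 4390 promoter entries (0.774%). CATCNCTA was present in 13 members (4.68%, 2.75 to 7.84%), 1.02% of weaker entries, 2.92% of intronic and 9.75% of promoter entries. Both stood together in 4 members, all of them among the strongest 20, against 1 of the 19519 weaker entries, 1 intronic entry and 7 promoter entries. Since the letters were chosen from the strongest members, these shares are a description and were not tested. Part of the same stretch also came up in the search over all 6-mers given further on, in which TCACGA, the reverse complement of TCGTGA, was present in 8.99% of members against 3.70% of weaker entries. That search covered the same members, among them those that gave the letters, so it is not separate evidence.

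Of the 1424 entries with a score of 540 or more that lay away from promoters, the members made up 19.5% (95% Wilson interval 17.5 to 21.7%). Among the 84412 weaker entries away from promoters, 23.1% were intergenic. A score of 540 or more was held by 5.45% of all ranked entries on the arms and by 1.4% of the 19797 intergenic ones, which is the choice of the members and is not read further. The authors' conservative set, whose entries all score 830 or more, held 110 of the 278 members (39.6%, 34.0 to 45.4%), against 61.8% of all 5814 entries. It held 33.2% of intronic entries, 14.9% of the 495 exonic entries and 72.7% of promoter entries. The members' deposited signal ran from 2.04 to 435 with a median of 60.1 (quartiles 48.1 and 89.7). The medians were 14.6 for weaker entries, 58.9 for intronic entries, 52.2 for exonic entries and 94.7 for promoter entries. These values come from the same peak calls as the score that chose the members, and were not tested.

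The 5 members just inside the limit had scores of 546, 545, 545, 543 and 541, and lay nearest Rh5, ND-24L (2 members), plh and oc. The 5 just outside had 539, 539, 538, 538 and 537, nearest MAGE, Gr93a, noc, Fer1 and CG10365. The signals of the members just inside, 12.8 to 53.1, overlapped those just outside, 14.8 to 52.3.

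The members' paired peaks were traced to each replicate's own ranked list. Their signals there are those that the joint list holds for the pair, so they are not a separate measurement. The replicate 1 list held the paired peak of 273 members at the same position and signal, the replicate 2 list that of 266, and both lists those of 261. Over those 261 the median signal was 38.0 in replicate 1 (23.8 to 266) and 30.0 in replicate 2 (21.4 to 177). The ratio of replicate 1 to replicate 2 had a median of 1.27 (quartiles 1.04 and 1.65) and was below 1 in 56 members (21.5%). In the 110 conservative members the median ratio was 1.48, with 7 below 1, and in the other 151 it was 1.12, with 49 below 1. The scale of the signal is not stated and may follow depth, so the ratio is not a difference in binding.

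**Figure D1:**
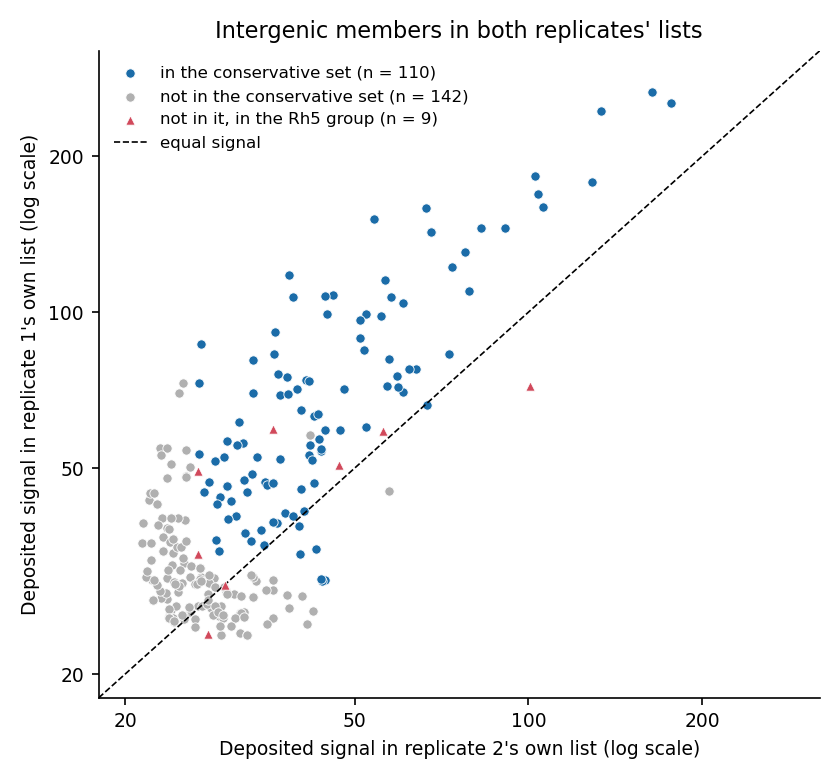
Deposited signal of each member in replicate 1's own list (vertical) and in replicate 2's (horizontal), both on log scales, for the 261 members in both lists, with a dashed line at equal signal. Conservative members are mostly above the line, with a median ratio of 1.48; the 9 members of the Rh5 group are marked as triangles and include the member with 101 in replicate 2 and 72.0 in replicate 1.

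The replicates' own thresholded sets were shorter in members than the joint list. Replicate 1's set held 85 members and replicate 2's 51, of which 45 were in both, and 187 members were in neither set. The set of both replicates that is not named conservative held 105. Positions were not all separate: 57 members shared a replicate's peak with another member, 264 had the same width of 460 bp, and joining summits within 500 bp left 245 sites. Of the 22 members with a signal under 20, 17 shared a replicate's peak in this way. The lowest of all, 2.04 beside Rx, was 1 of 2 members that both took 46.2 from replicate 1 and 30.0 from replicate 2.

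The 20 members of highest signal ran from 161 to 435, and 19 of them were in the conservative set. The member nearest CG5273 (FBgn0040382, summit X 758964) had 254 in replicate 1 and 177 in replicate 2 and lay 630 bp upstream of its start, in a gap of 874 bp after CG5254. The member nearest inc (FBgn0025394, X 1517707), which encodes a Cullin-3 adaptor needed for normal sleep, had 266 and 164 and lay 92 bp after the end of the gene. The member nearest CG15468 (FBgn0061196, X 4956147) had 245 and 134, 231 bp after the end of the phosphatase gene Ptp4E and before a non-coding gene. In all 3 the signal was higher in replicate 1 than in replicate 2, and no other member reached 200 in replicate 1.

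Next came Rcd2 on 3L with 179 and 129, SP1029 on 3R, an aminopeptidase gene, with 169 and 104, and Sfp79B on 3L, a seminal fluid protein gene beside the ribosomal stalk gene RpLP0, with 160 and 106. Sumo, which encodes the small ubiquitin-like modifier, had 183 and 103, CG14314 159 and 66.5, and psq, a BTB factor that binds GA-rich DNA, 146 and 91.1. CG31523 (131 and 77.7), CG5445 beside the homeobox gene B-H2 (151 and 54.1), e(y)2b beside the tubulin gene alphaTub84B (143 and 67.8), CG6465 (146 and 82.7), CG43402 (110 and 78.9) and del, a gene of the piRNA cluster machinery (122 and 73.6), followed. The last of the 20 were Rh5, a rhodopsin gene (72.0 and 101), CG43066 (107 and 57.8), the zinc finger gene Zif (98.5 and 55.4), GATAe beside srp, both GATA factor genes (104 and 60.6), and CG13465 (115 and 56.4). Rh5 was the 1 member of the 20 with a lower signal in replicate 1 than in replicate 2, and also the 1 that the conservative set did not hold.

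Members lay closer to transcript starts than weaker intergenic entries did, although the rule fixes only that the distance is over 500 bp. The median distance was 1810.5 bp for members (quartiles 901 and 4031 bp, farthest 34588 bp) and 4146 bp for weaker entries. Within 2 kb of a start lay 151 of 278 members (54.3%, 95% Wilson interval 48.4 to 60.1%), against 25.8% of weaker entries, an odds ratio of 3.42 (95% Woolf interval 2.69 to 4.34, 2-sided Fisher's exact test p = 1.69e-23). Beyond 5 kb lay 51 members (18.3%), against 43.5% of weaker entries, an odds ratio of 0.292 (0.215 to 0.396, Fisher's exact test p = 1.44e-18). The intronic entries had a median of 1809 bp, next to that of the members. Entries that share a region are not independent, which makes these and the later p-values approximate, and they measure regions, not replicates.

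**Figure D2:**
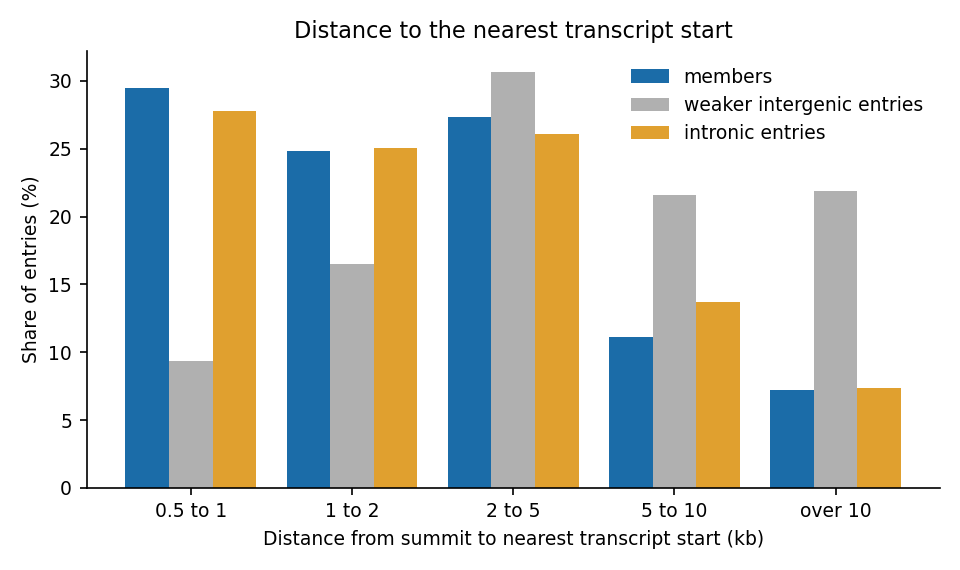
Share of entries (vertical, percent) by distance from the summit to the nearest transcript start (horizontal, kb) for the 278 members, the 19519 weaker intergenic entries and the 651 intronic entries. Of the members, 29.5% lay at 0.5 to 1 kb and 7.19% beyond 10 kb, against 9.33% and 21.9% of weaker entries.

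The gaps that held members were also shorter, with a median of 5886 bp against 14588 bp for weaker entries, and a short gap limits the distance to a start. In gaps of up to 5886 bp, 110 of 143 members (76.9%, 69.4 to 83.1%) lay within 2 kb of a start, against 71.3% of weaker entries, whose share falls inside the members' interval. In longer gaps it was 41 of 135 members (30.4%, 23.2 to 38.6%) against 14.6% of weaker entries. Gap length was thus unequal between the groups, and its part in the difference was not tested.

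The ends of genes were a frequent position. Within 500 bp after the annotated end of a gene lay 66 members (23.7%, 95% Wilson interval 19.1 to 29.1%), against 6.42% of weaker entries, and for those 66 members the median distance past the end was 238 bp. In gaps of up to 5886 bp the shares were 38.5% of members (30.9 to 46.6%) and 22.1% of weaker entries, and in longer gaps 8.15% (4.61 to 14.0%) and 2.56%. Of the 20 strongest members, 11 lay there, among them those nearest CG5273, inc, CG15468, SP1029 and Sumo, where the ends were those of CG5254, inc, Ptp4E, the Cdc25 gene stg and snRNP-U1-70K. The share was 39.1% in the 110 conservative members and 13.7% in the other members, and 42 of the 66 also lay within 2 kb of a start. These shares were counted after earlier values had been seen and were not tested.

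Other features of the gaps were counted without a test. Upstream of the nearest coding start lay 66.5% of members and 59.9% of weaker entries, in divergent gaps 28.4% and 23.4%, in convergent gaps 25.9% and 24.8%, and in tandem gaps 45.7% and 51.8%. A non-coding gene or pseudogene bordered the gap of 39.9% of members and 49.9% of weaker entries. In convergent gaps, 35 of 72 members (48.6%) were conservative, in divergent gaps 30 of 79 (38.0%) and in tandem gaps 45 of 127 (35.4%). Promoter entries were not usually at hand: 6 members had one within 500 bp of their summit, 33 within 1 kb, and the median distance was 10453 bp.

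Sequence, which the rule did not use, differed between members and weaker entries for 6 of 22 motifs (27.3%), all higher in members. The full DREF site TATCGATA was present in 19 of 278 members (6.83%, 95% Wilson interval 4.42 to 10.4%), against 77 of 19519 weaker entries (0.394%), an odds ratio of 18.5 (11.0 to 31.1). Its adjusted p was 1.60e-15, from Fisher's exact test (2-sided) and adjusted by Benjamini-Hochberg over all 22 motifs, as in each comparison of motifs that follows. Its core TATCGA, which every TATCGATA contains, was present in 54 members (19.4%) and 5.91% of weaker entries (odds ratio 3.84, exact adjusted p = 2.54e-13). GAGAGAGA was present in 24 members (8.63%) and 1.14% of weaker entries, an odds ratio of 8.21 (5.30 to 12.7, exact adjusted p = 7.12e-13), and GAGAG, which lies inside it, in 92 members (33.1%) and 22.3% (odds ratio 1.72, adjusted p = 0.000249). GGTCACAC, core promoter motif 1, was present in 6 members (2.16%) and 0.333% of weaker entries (odds ratio 6.60, exact adjusted p = 0.00213). The E-box CACGTG, in 15 members (5.40%) and 2.56% of weaker entries (odds ratio 2.17, exact adjusted p = 0.0254), lost its call under 8 of 12 alternatives, whose adjusted p ran from 0.00288 to 0.322. The GAGAGAGA call was lost in entries from replicate 2's own list (odds ratio 3.27, exact adjusted p = 0.0626, range over the alternatives 1.62e-13 to 0.0626). Median GC content was 45.3% in both groups of windows.

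**Figure D3:**
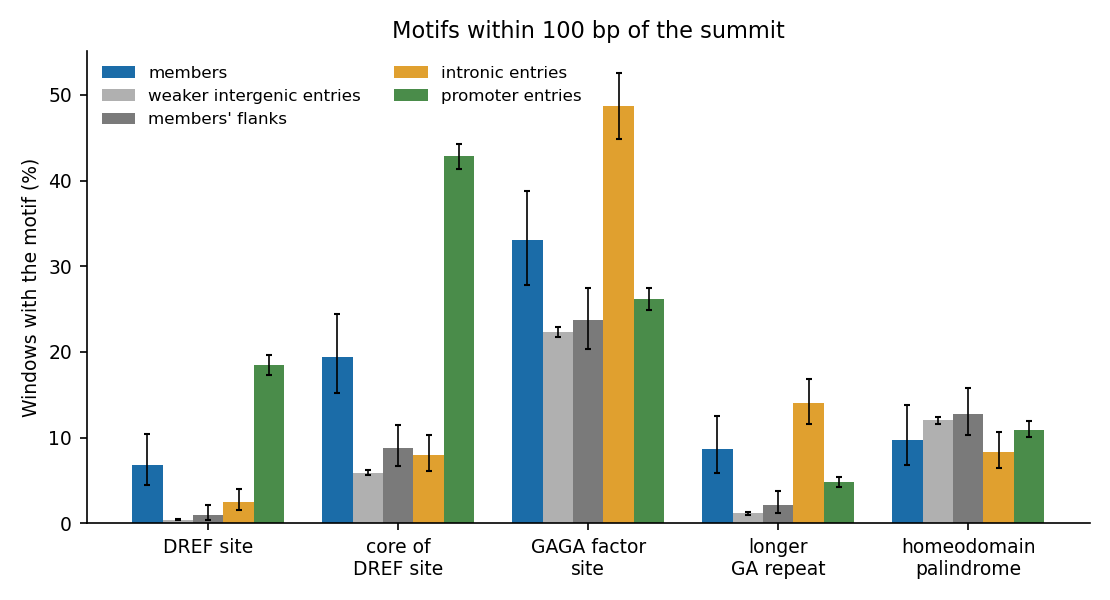
Share of windows (vertical, percent) with each motif within 100 bp of the summit for members, weaker intergenic entries, the members' own flanks centred 1000 bp away, intronic entries and promoter entries; error bars are 95% Wilson intervals. TATCGA is in 19.4% of members, 5.91% of weaker entries and 42.8% of promoter entries, and GAGAG in 33.1% of members and 48.7% of intronic entries.

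The members' own flanks were equally wide windows whose centres lay 1000 bp before and after the summit, and the comparison with them gave 4 calls (18.2%), all higher at the summits. The test treated all windows as separate and did not pair a summit with its own flanks. Summits held TATCGATA in 6.83% of windows and flanks in 0.899%, with an odds ratio of 8.08 (2.99 to 21.9) and an exact adjusted p of 8.74e-05. The shares with TATCGA were 19.4% and 8.81% (odds ratio 2.49, exact adjusted p = 0.000213), and those with GAGAGAGA 8.63% and 2.16% (odds ratio 4.28, exact adjusted p = 0.000266). GAGAG was in 33.1% and 23.7% (odds ratio 1.59, exact adjusted p = 0.0265), a call that was lost under 4 of 12 alternatives (exact adjusted p from 0.00483 to 0.368). In entries from replicate 2's own list, the GAGAGAGA call against flanks was lost too (odds ratio 2.57, exact adjusted p = 0.524, range over the alternatives 6.35e-05 to 0.524). In members with TATCGATA within 100 bp of the summit, the nearest copy was a median of 33.5 bp away and within 25 bp in 8 of 19. For GAGAGAGA the median was 38.5 bp, with 7 of 24 within 25 bp. The search window bounds these distances, and whether the motifs lay nearer than placement at random in it was not tested.

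Against intronic entries, 6 of 22 motifs were called (27.3%), 2 higher and 4 lower in members. The DREF site was the more frequent in members: TATCGATA stood in 6.83% of members and 2.46% of intronic entries, with an odds ratio of 2.91 (1.47 to 5.75) and an exact adjusted p of 0.01001. TATCGA stood in 19.4% and 7.99% (odds ratio 2.78, exact adjusted p = 3.36e-05). GAGAG stood in 33.1% of members and 48.7% of intronic entries (odds ratio 0.521, exact adjusted p = 0.000116). GAGAGAGA stood in 8.63% and 13.98% and was not called (odds ratio 0.581, exact adjusted p = 0.0671). It was called lower in members under 5 of 11 alternatives, whose exact adjusted p ran from 0.00647 to 0.499. GTGTGTGT (6.12% and 14.9%), CACACACA (8.27% and 15.7%) and CAGGTA, the core of sites for the early activator Zelda (1.80% and 5.53%), were also lower in members, with exact adjusted p of 0.000852, 0.01001 and 0.0326. With windows of 50 bp to each side of the summit, the calls of TATCGATA (odds ratio 2.60, exact adjusted p = 0.0768) and GAGAG (odds ratio 0.621, exact adjusted p = 0.0531) were lost. TATCGA was the 1 motif still called there (exact adjusted p = 0.00728), so GTGTGTGT, CACACACA and CAGGTA lost their calls too. Their calls were not followed singly under the other alternatives. Over the alternatives the exact adjusted p ran from 5.35e-06 to 0.0768 for TATCGATA and from 9.58e-06 to 0.0531 for GAGAG.

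Promoter entries stood on the other side, with 10 of 22 motifs called (45.5%), 5 lower and 5 higher in members. TATCGATA was in 6.83% of members and 18.4% of promoter entries with an odds ratio of 0.325 (0.203 to 0.521) and an exact adjusted p of 1.09e-06, TATCGA in 19.4% and 42.8%, and GGTCACAC in 2.16% and 7.47%. CAGCTG (10.1% and 17.0%) and CAGGTA (1.80% and 4.81%) were lower too. Higher in members were GAGAG (33.1% and 26.1%), GAGAGAGA (8.63% and 4.76%), CACACACA (8.27% and 4.85%), GCCAT, the core of sites for the Polycomb recruiter Pleiohomeotic (38.8% and 30.5%), and GCATACTT of the insulator protein Suppressor of Hairy-wing, in 7 members (2.52%) and 0.547% of promoter entries (odds ratio 4.70, exact adjusted p = 0.00884). Of weaker intergenic entries, 41.1% held GCCAT and 1.28% GCATACTT. Neither motif was called against weaker entries, flanks or intronic entries. CACACACA was not called against weaker entries or flanks. Median GC was 45.3% in members and 41.3% in promoter entries, and its part was not tested. With members at or above their median signal, 0 motifs were called against promoter entries by Fisher's exact test. Of 11 alternatives, GAGAG, GAGAGAGA and GGTCACAC each lost their call against promoter entries under 4, TATCGATA under 2 and TATCGA under 1. In entries from replicate 2's own list, those of GAGAGAGA (odds ratio 1.42, exact adjusted p = 0.510) and GGTCACAC (odds ratio 0.323, exact adjusted p = 0.163) were among the lost. With a score of 830 or more, TATCGA (exact adjusted p = 0.000665) and GAGAG (exact adjusted p = 0.00658) were the 2 motifs still called. The other calls were lost there, among them those of the Suppressor of Hairy-wing, Pleiohomeotic and Zelda motifs. Motifs not counted over the 11 alternatives were not followed singly.

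The homeodomain motifs were not called in these tests. TAATTA was in 27 members (9.71%, 6.76 to 13.8%), against 11.99% of weaker entries, with an odds ratio of 0.790 (0.530 to 1.18) and an exact adjusted p of 0.416. Of flanks 12.8% held it, with an odds ratio of 0.735 (0.460 to 1.17) and an exact adjusted p of 0.387. TAATTG was in 15.5% of members and 18.7% of weaker entries (odds ratio 0.797, 0.575 to 1.11), and TAATCC, the form bound by Bicoid and Otd class factors, in 5.04% and 6.21% (odds ratio 0.801, 0.466 to 1.38). The intervals reach above 1, so a modest excess in either direction was not detectable with 278 members. Among the 20 strongest members, 5 held TAATTA.

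Within the members, the DREF site went with signal and the GA repeat did not show the same order. Among the 93 members with signals of 76.7 or more, 17 held TATCGATA (18.3%, 95% Wilson interval 11.7 to 27.3%), among the 92 with signals of 52.7 to 76.5 there were 2, and among the 93 with lower signals 0 of 93. The shares with TATCGA in the same order were 39.8%, 11.96% and 6.45%, those with GAGAG 34.4%, 38.0% and 26.9%, and those with TAATTA 10.8%, 10.9% and 7.53%. Of the 110 conservative members, 17 held TATCGATA (15.5%), and of the other members 2 of 168 (1.19%). The 45 members with TATCGA and no GAGAG had a median signal of 104, with 32 in the conservative set (71.1%). The 83 with GAGAG alone had 64.0, with 37 (44.6%), the 9 with both had 87.1, and the 141 with neither had 54.5, with 36 (25.5%), yet this last group also held the strongest member, at 435. The signal comes from the same peak calls as the score that chose the members, so these are descriptions.

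**Figure D4:**
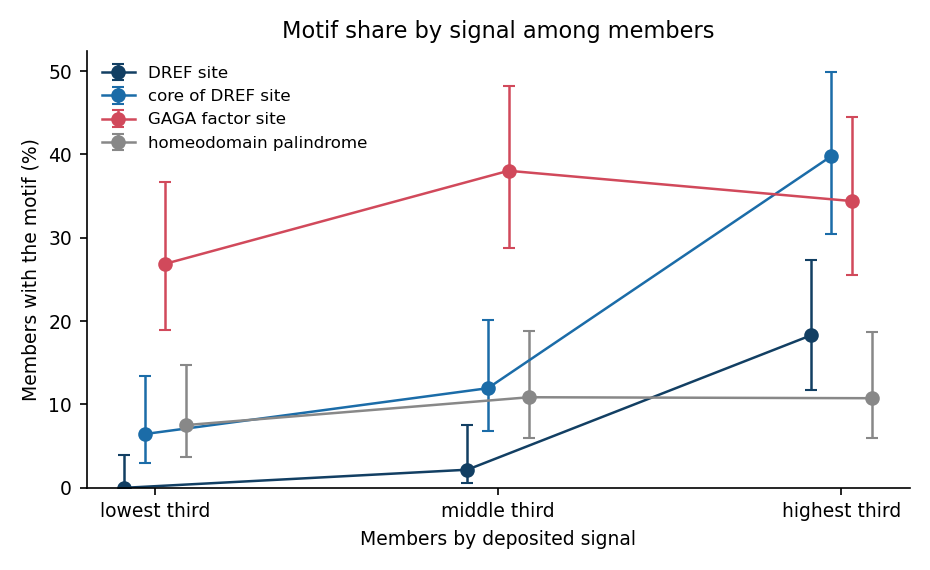
Share of members (vertical, percent) that hold each motif within 100 bp of the summit, in 3 bins of deposited signal (horizontal, 93, 92 and 93 members); error bars are 95% Wilson intervals. The core of the DREF site is in 6.45%, 11.96% and 39.8% of members from low to high signal, while the GAGA factor site is in 26.9%, 38.0% and 34.4%.

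TATCGATA stood at 4 of the 20 strongest members, those nearest Sumo (229), psq (225), CG31523 (208) and CG43066 (172). It recurred at CG3168 (154), Tpr2 (147), mRpS5 (145) and CG4593 (135), and the 2 members outside the conservative set that held it were those nearest Lamp1 (72.8) and gzl (70.7). GAGAGAGA was in 0 of the 20 strongest, and its strongest carriers were CG11629 (155), Su(z)2 (138), a Polycomb group gene, a second member at psq (133) and klu (108), a zinc finger gene of neural and eye development. The TATCGATA members outside the list of named genes were picked for carrying the motif.

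All 2080 6-mers, each read with its reverse complement, were searched in the same windows against the weaker entries. Fisher's exact test with Benjamini-Hochberg adjustment called 40 (1.92%), 32 higher and 8 lower in members, and 258 had an unadjusted p under 0.05. CGATAG led, in 18.7% of members and 3.59% of weaker entries (odds ratio 6.18, exact adjusted p = 1.63e-18). TATCGA, with an odds ratio of 3.84, and the overlapping word ATCGAT, with 3.79, belong to the same family. AGAGCG was in 21.6% and 6.51% (odds ratio 3.95, exact adjusted p = 4.27e-13). The others of the 10 with the smallest p overlap it or one another: AGAGAG had an odds ratio of 3.12, GAGCGA had one of 2.78, GAGAGA had one of 2.79, GAGAGC had one of 2.72, GCGAGA had one of 2.68 and AGCGAG had one of 2.49. Of the 32, 6 hold 5 letters of the DREF site, 8 hold 5 letters of a GA repeat, and 18 hold neither. TCACGA was 1 of these 18, in 25 members (8.99%) and 3.70% of weaker entries (odds ratio 2.57, exact adjusted p = 0.00680). The 8 lower ones included AAAGGA (7.55% and 16.7%, odds ratio 0.408), ACTCCA (2.88% and 9.07%) and CCAGGA (3.60% and 10.1%). The calls fell to 13 in entries from replicate 2's own list and came to 80 in those from replicate 1's.

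Most members stood alone. When members within 10 kb were joined there were 224 groups: 189 members alone, 26 groups of 2, and 9 groups of 3 or more with 37 members. The nearest coding starts belonged to 229 genes, 194 of them with 1 member and 8 with 3 or more: Rh5 (6), psq, CG10651 and CG13334 (4 each), and dve, Hacd1, by and chinmo (3 each). dve encodes a homeodomain factor, by the fly tensin and chinmo a BTB zinc finger factor of neural timing.

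The largest group, 9 members over 8663 bp of 2L (12003405 to 12012068), filled the gap between Hacd1, a fatty acid elongation gene, and Rh5 and went on past Rh5. The 4 strongest signals were 181, 118, 115 and 104, with 72.0, 58.9, 59.6 and 50.8 in replicate 1 and 101, 55.9, 36.1 and 47.0 in replicate 2. Of the 9, 5 had a score of 830 or more, yet 0 of the 9 were in the conservative set, in either replicate's thresholded set or in the set of both. On the chromosome arms 127 of 3719 entries with a score of 830 or more were missing from the conservative set, and among members 7 of 117 were, the other 2 being nearest tara on 3R (101) and COX7AL2 on 2L (84.0). Leaving the 9 members out, an alternative added after the data had been seen, changed 1 of the motif calls against weaker entries that were followed, CACGTG (exact adjusted p = 0.0644). What removed the region from the thresholded sets is not given in the sources used here.

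The second group held 5 members over 11401 bp of 3L (14554150 to 14565551) near Gbs-70E, Lk and CG42758, of which 3 were conservative, with signals from 5.92 to 87.9. Lk encodes the neuropeptide leucokinin. The third, 4 members over 2929 bp of 2R (10554297 to 10557226), lay upstream of psq, the gene of the BTB factor Pipsqueak, and all 4 were conservative. From far to near the start of psq they had signals of 58.7, 133, 102 and 225, with 36.3, 66.1, 59.3 and 146 in replicate 1 and 28.7, 66.8, 47.1 and 91.1 in replicate 2. The one nearest the start, 662 bp upstream, was the strongest in both replicates and held TATCGATA, while the second strongest held GAGAGAGA. A group of the same size lay near CG13334 on 2R, with 1 conservative member and signals from 8.50 to 69.4.

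**Figure D5:**
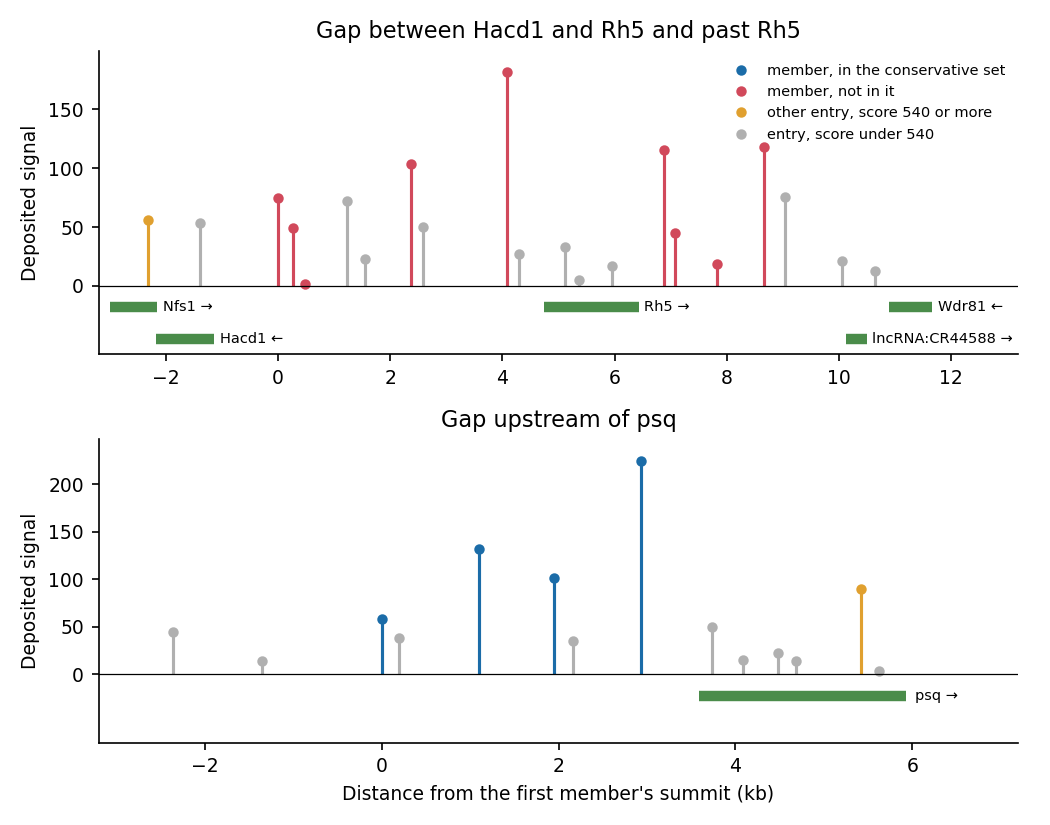
Deposited signal (vertical) of each ranked entry by distance from the first member's summit (horizontal, kb) in the largest group, around Rh5, and in the group upstream of psq; green bars are genes with an arrow for their strand, drawn only within 3 kb of the group, so that psq goes on past its bar. All 9 Rh5 members are outside the conservative set, and all 4 psq members are in it, with signals of 58.7 to 225.

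The members nearest to genes of the head and of patterning were few and mostly of middling signal, with a median of 60.1 over all members. In the list of 14 head gap and retinal determination genes, 7 genes were nearest to 10 members (3.60%, 95% Wilson interval 1.97 to 6.49%), against 0.640% of weaker entries, and 3 of the 10 were conservative. ems, a homeobox gene of the head, had 87.7 at 20124 bp, btd, a zinc finger head gap gene, 85.6 at 13779 bp, and so, a homeobox gene of eye formation, 65.8 at 551 bp. The others were at slp1, slp2, Optix and oc, with a second one at btd. The 2 members at each of btd, slp2 and Optix had the same replicate 2 signal as each other. The 10 members are thus not all separate sites, and the interval is approximate. Of hbn, Rx and otp, neighbouring homeobox genes on 2R, Rx was nearest to 2 members with signals of 70.9 and 2.04, which shared a peak in each replicate and were both conservative, and hbn and otp were nearest to 0.

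Other lists held fewer. Segmentation genes were nearest to 4 members (1.44%, against 1.41% of weaker entries), at ptc, slp1 and slp2, with 70.0 for ptc, the Hedgehog receptor gene. Neuroblast temporal factor genes were nearest to 5 (1.80% against 0.487%), at slp1, slp2 and pdm2 (58.6 and 58.3), a POU factor gene. Proneural and neuroblast fate genes had 3 (1.08% against 0.656%), numb with 57.6 and SoxN with 54.6 being the strongest. Mesoderm and muscle regulators had 3 (1.08% against 0.856%), with 56.2 at the T-box gene H15 and 34.9 at bin. The 2 members at each of slp2, pdm2, numb and H15 had the same replicate 1 signal as each other, so these counts hold some peaks more than once. Hox genes had 1 (0.360% against 0.138%), at Antp (56.4), and Notch pathway genes 1 (0.360% against 0.200%), at E(spl)m7-HLH (32.3). Ecdysone response genes had 0 of 278 members, which allows a share of up to 1.36% by the 95% Wilson interval and so does not set them apart from the 0.133% of weaker entries. Of 15 genes of chromatin remodellers and psq, psq alone was nearest to members, the 4 given above (1.44% against 0.0461% of weaker entries). None of the 17 members counted in the segmentation, temporal, proneural, mesoderm, Hox and Notch lists, where slp1 and slp2 count in 2 lists, was conservative, and these shares were not tested.

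At the far end, 20 members lay over 10 kb from any transcript start, 7 of them conservative. The strongest were CG43402 on 2L (199, 19567 bp), Su(z)2 on 2R (138, 18651 bp) and CG10651 on 2L (129, 14366 bp), and the farthest, nearest CG17571, lay 34588 bp from a start with a signal of 96.3. By arm, 45 members were on X, 64 on 2L, 54 on 2R, 58 on 3L, 55 on 3R, 2 on 4 and 0 on Y, and 0 of 7 arms (0%) differed from the weaker entries by Fisher's exact test, with 0 at an unadjusted p under 0.05. The smallest p, for 2L with 23.0% of members and 18.4% of weaker entries, was 0.0518 (exact adjusted p = 0.192). This count came to 3 arms in entries from replicate 2's own list.

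Repeats did not pass the test. Summits inside an annotated transposable element numbered 6 (2.16%, 0.993 to 4.63%), against 3.59% of weaker entries with an odds ratio of 0.592 (0.263 to 1.33) and p = 0.253 by Fisher's exact test, and soft-masked sequence held 17.3% and 16.9% (odds ratio 1.02, p = 0.872). The 6 lay in INE-1 copies near ArgRS (105) and Roc1a (83.3), a ninja-Dsim-like copy near Arpc3B (84.6), an R1 copy near UQCR-11 (76.0) and 1360 copies near PlexB (52.4) and CG10651 (10.5). In entries from replicate 2's own list the order turned round, with an odds ratio of 3.47 (Fisher's exact test p = 0.000696), so the share in transposable elements depends on which list chooses the entries. Against RefSeq's gene models, 0 members lay in a gene or within 500 bp of a start.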

How the data were processed

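The measurements are peak lists of 1 group with 2 biological replicates, as the authors deposited them on dm6, per the deposited README files. The peak caller is not given in the sources used here. The deposited score (up to 1000) equals −125 times log2 of the IDR within 1 unit for 100% of ranked entries. The signal is the authors' enrichment value on an unstated scale, and the ranked files also hold the authors' −log10 of the global IDR. Depth is unknown, so intervals cover the counting of regions and no reads. The members and lists were chosen with earlier results of these data known.

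Gene models were Ensembl's (release 115) for the Release 6 assembly, and sequence was RefSeq's copy of it. Coordinates are 1-based. Motifs were sought on both strands in 201 bp around each summit, and differences in shares were put to 2-sided Fisher's exact tests. P-values were adjusted by Benjamini-Hochberg over the motifs, 6-mers or arms and called at an adjusted p under 0.05 (Python 3.11.15, pandas 2.3.3, SciPy 1.17.1). The gene with the nearest coding start is a label of position, not a target. A member's signal in a replicate is that of its matched peak in the replicate's own list. Motifs were 22 consensus sites.

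Named are the 20 members of highest signal, the 3 largest groups, genes nearest to 3 or more members, up to 3 members a list, the entries beside the threshold, all motifs called and the 10 6-mers of smallest p, and exceptions are stated. Alternatives were a score of 830, each replicate's own list, the other joint list, 1000 bp from starts, 1 entry within 500 bp, members at or above their median signal, no repeats, windows of 50 or 200 bp to each side, and flanks 2000 bp away. Weaker entries over 1 kb from any stronger entry and leaving out the Rh5 group were added after the data were seen.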

Additional observations from a re-analysis of the deposited data

How the results depend on the processing

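All distance results and the calls of TATCGATA and TATCGA against weaker entries and flanks kept their direction and their call under every alternative run. Leaving out a replicate gave 120 to 206 entries, 23.4 to 26.6% of entries away from promoters, 1 to 3 arms called, an odds ratio of 1.23 to 3.47 for transposable elements, reversed without replicate 1, 2 to 4 motifs called against flanks, 4 to 6 against promoter entries, and 13 to 80 6-mers. A score of 830 or more left 117 entries (26.5%) and 2 motifs called against promoter entries. Members at or above the median signal numbered 139, with 0 motifs called against promoter entries. The other joint list called 2 arms. A promoter distance of 1000 bp gave 5 motifs against promoter entries and 16 6-mers. Windows of 50 bp to each side gave 1 motif against intronic entries, 4 against promoter entries and 22 6-mers, and windows of 200 bp gave 72 6-mers. The cause of these changes was not tested, and neither was the part that smaller numbers of entries had in them. Of the 28 odds ratios of the motifs that were followed singly, 11 lost a call under 1 or more alternatives, 1 gained one (GAGAGAGA against intronic entries) and 16 did neither. No paired analysis of samples was possible because the series holds 1 group. Summits and their own flanks could have been paired, and were compared unpaired. Signal over background was not measured, and depth is unknown.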
